A study of Mus musculus with 6 samples.

Results

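The carbonic anhydrases are a family of genes whose products interconvert carbon dioxide and water with bicarbonate and protons. The 8 members described are Car1, Car2, Car3, Car4, Car5b, Car8, Car12 and Car13, out of 18193 genes measured. A probe set, the group of short probes that reports on a transcript, counted for a member only if the annotation gave it that gene alone, which left 19 probe sets. For each gene the probe set with the highest mean signal over all 6 arrays was used, and the other 11 are given beside it. Probe sets were thus chosen by the mean signal over both genotypes and not by the difference between them. The family itself was selected on earlier results of these data, the lower signal of Car3 among them, so the values of Car3 are a description and no independent evidence.

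Most carbonic anhydrases hold a zinc ion in the active site and differ in speed and in where they sit in the cell. Car1, Car2, Car3 and Car13 are cytosolic, Car5b is mitochondrial, Car4 and Car12 act at the outer face of the cell membrane, and Car8 lacks enzyme activity. In blood formation the family is best known from the red cell lineage, where Car1 and Car2 are abundant and Car2 serves carbon dioxide transport, and Car2 also supplies the protons with which osteoclasts dissolve bone mineral.

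RNA came from sorted mouse bone marrow cells that lacked Flt3 and lineage markers and carried Sca1 and cKit, a gate that enriches stem and progenitor cells. The 3 Raptor mutant arrays came from C57BL/6 background mice that were homozygous for a Raptor allele floxed at exon 6 and carried the MxCre transgene, whose promoter responds to interferon. The 3 Raptor wild type arrays came from mice with the same floxed alleles and no MxCre. All mice of both groups had been injected with pIpC, which triggers interferon release, 3 times in 5 days (15 µg for each g of body weight), and cells were sorted 5 weeks later. The labels do not say whether an array stands for a separate mouse, and the spread behind each p-value is that between arrays, which may be technical. Raptor is the subunit that defines the growth-regulating kinase complex mTORC1, and its gene is Rptor. The comparison is between mice with and without MxCre, so effects of deleting Rptor and of MxCre itself cannot be told apart.

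The median log2 signal of an array was 6.85 to 6.94 and the lower quartile 5.15 to 5.37. Rptor itself had a log2 fold change of 0.22 ± 0.29 (SE), and where its probes lie relative to the deleted exon was not analysed here. Of the gate genes, Kit had a log2 signal of 10.71 to 10.94 on mutant and 10.72 to 11.17 on wild type arrays. Flt3, against which cells were sorted, had 9.64 to 10.18 on mutant and 9.51 to 10.79 on wild type arrays, above the upper quartile of the arrays (8.82 to 8.97). All 5 measured genes of Flt3 and lineage cells, against which the gate selects, had a log2 fold change below 0, with a mean log2 signal of 6.36 to 6.49 on mutant and 6.79 to 6.86 on wild type arrays. Of these, Itgam, a myeloid gene that was chosen after its values were seen, had 5.22 to 5.35 on mutant and 5.58 to 6.50 on wild type arrays, without overlap, and a log2 fold change of -0.90 ± 0.26 (SE, adjusted p = 0.310 in limma). Ly6a, the gene of Sca1, was not analysed here. Wild type arrays 2 and 3 carried signal of the Y-linked genes Eif2s3y and Kdm5d (9.53 to 10.81), while the 3 mutant arrays and wild type array 1 did not (3.60 to 4.53). The sex-linked gene Xist had 13.37 to 13.46 on the 3 mutant arrays and wild type array 1. It had 8.05 on wild type array 2 and 5.69 on wild type array 3. Sex-linked signal thus went with genotype except on wild type array 1, so effects of sex and of genotype cannot be fully told apart. Values against wild type array 1 alone are therefore given where a result turns on them. In correlation between whole arrays, wild type array 1 reached 0.984, 0.983 and 0.977 with mutant arrays 1, 2 and 3. With its own group it reached 0.962 (array 2) and 0.967 (array 3). Wild type arrays 2 and 3 had the lowest correlation of any pair, 0.957. The median SD was 0.16 within the mutant group and 0.29 within the wild type group, so the wild type group was the less uniform.

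Among the 8 members, Car3 was the gene called lower in mutant arrays, at an adjusted p under 0.05 in a limma fit over all 18193 genes, and 0 members were called higher. At an unadjusted p under 0.05 there were 3 members, Car2, Car3 and Car12, where 10.0% of all genes passed. Over all genes 0.055% were called lower and 0.055% higher. The 3 mutant values lay below the 3 wild type values in 2 members, Car2 and Car3, where 7.98% of all genes showed this. They lay above in 1 member, Car12, where 8.08% of all genes did. In the other 5 members the groups overlapped. The median log2 fold change of the 8 members was -0.19, beside -0.07 for all genes.

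**Figure D1:**
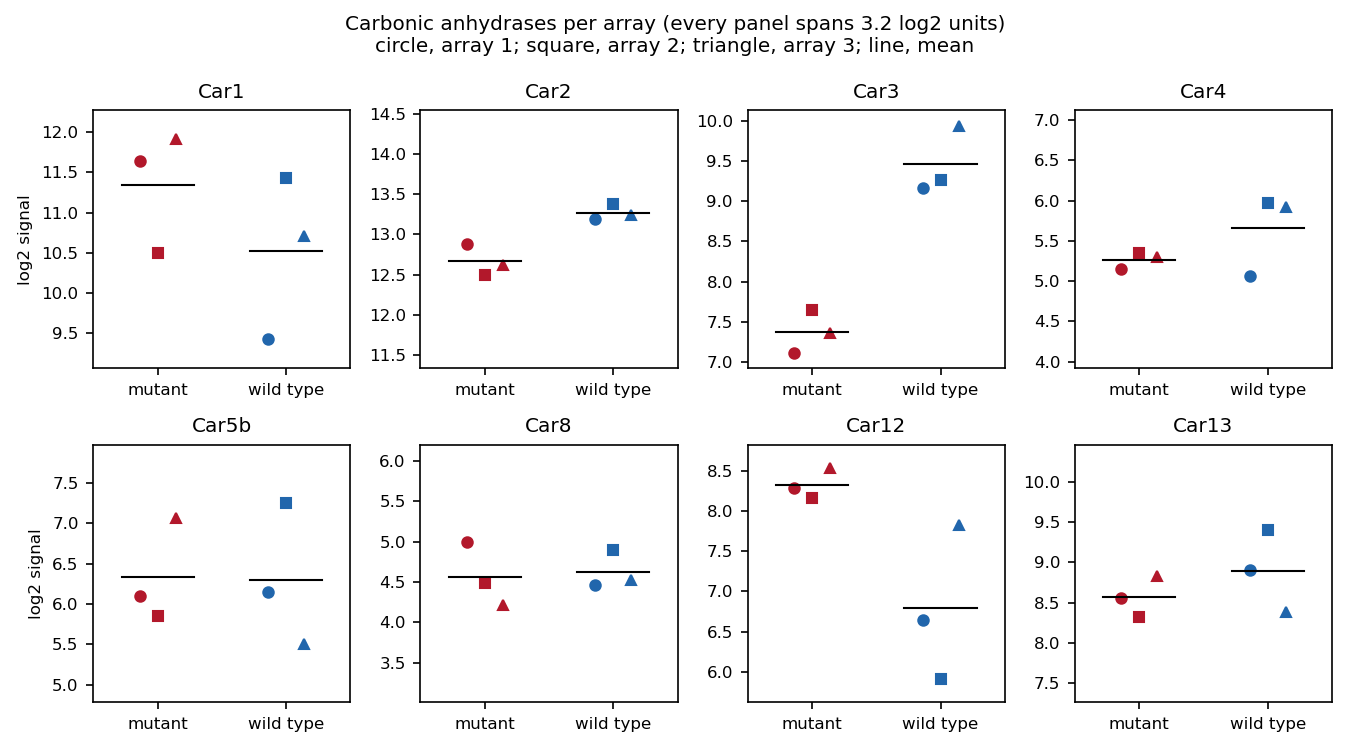
Log2 signal (y axis) of the brightest probe set of each member on the 3 mutant and 3 wild type arrays (x axis). Points are arrays and lines are group means. Car2 and Car3 separate with the mutant arrays below, Car12 with the mutant arrays above, and the groups overlap in the remaining 5 panels.

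Among the cytosolic enzymes, Car3 was lower in mutant arrays by a large margin. Car3 is a slow carbonic anhydrase known mainly from skeletal muscle, liver and fat. Its log2 signal was 7.12, 7.64 and 7.36 on mutant arrays 1, 2 and 3, against 9.17, 9.26 and 9.94 on the wild type arrays 1, 2 and 3. The highest mutant array thus lay 1.52 log2 units below the lowest wild type array. Group means were 7.37 ± 0.26 in mutant and 9.46 ± 0.42 in wild type arrays (SD, n = 3 each). Car3 fell by 2.08 ± 0.25 (SE) on the log2 scale, with a 95% interval of -2.66 to -1.50, which is 4.23-fold, and its adjusted p in limma was 0.042. Against wild type array 1 alone the log2 difference was -1.79. The call did not survive in 14 of 18 alternatives, among them each of the 6 fits that left out an array, where the adjusted p in limma ran from 0.068 to 0.173 and the log2 fold change from -2.23 to -1.84. Over the 18 alternatives the adjusted p in limma ran from 0.014 to 0.467.

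The other 3 probe sets of Car3 did not show a difference of that size. The second brightest, 1460256_at, had a log2 signal of 6.52, 6.44 and 6.90 on mutant arrays, against 6.70, 6.50 and 7.44 on the wild type arrays. This probe set had a log2 fold change of -0.26, and the groups overlapped. The dimmest pair, 1430584_s_at and 1453588_at, had log2 fold changes of -0.12 and -0.40 and lay below the array's lower quartile on 5 and 4 of 6 arrays. With the mean of the 4 probe sets, Car3 had a log2 fold change of -0.71 and an adjusted p of 0.295 in limma. The decrease of Car3 thus rests on 1 probe set, 1449434_at.

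Genes of fat and of skeletal muscle, tissues in which Car3 is abundant, were set beside it. Of 8 adipocyte genes, 3 had a log2 fold change above and 5 below 0, and their mean log2 signal was 5.64 to 5.74 on mutant and 5.44 to 5.94 on wild type arrays. Adipoq and Lep, the genes of the fat cell hormones adiponectin and leptin, which were chosen after their values were seen, lay below the lower quartile on every array. Of 12 skeletal muscle genes, 10 were below 0, with a mean log2 signal of 6.01 to 6.23 on mutant and 6.09 to 6.64 on wild type arrays. In 3 of the 12 (Ckm, Tnnt3 and Myh2, chosen after their values were seen) all mutant values lay below all wild type values. Of all genes, 7.98% showed this. Ckm, muscle creatine kinase, had 6.33 to 6.44 on mutant and 6.52 to 6.91 on wild type arrays. The median log2 fold change was -0.14 for the adipocyte and -0.17 for the muscle list, and limma called 0 genes of either list, with 0 and 1 (Tnnt3, a troponin gene, with a log2 fold change of -0.83) at an unadjusted p under 0.05. Of all genes, 10.0% passed that unadjusted threshold. The part of muscle genes in the Car3 result was not tested.

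The mean signal of a list of haematopoietic stem cell genes lay lower on the mutant arrays, as that of Car3 did. Of 15 such genes, 13 had a log2 fold change below 0 and 2 above. The groups did not overlap in 9, all lower, where 7.98% of all genes showed this. Mmrn1 and Tek were called, where 0.055% of all genes were called lower. The mean log2 signal of the list was 8.70 to 8.80 on mutant and 9.39 to 9.69 on wild type arrays. In bulk samples, fewer cells of a type and less RNA per cell cannot be told apart. Other lists lay lower on the mutant arrays as well. The mean log2 signal of 9 megakaryocyte genes was 8.07 to 8.25 on mutant and 8.34 to 8.49 on wild type arrays, and the genes selected against in the sort did not overlap either, as given above. Of the megakaryocyte genes 3 had a log2 fold change above and 6 below 0, and limma called 0. An unadjusted p under 0.05 was reached by 10.0% of all genes and by 5 of these 9. These 5 were Pf4, Ppbp and Vwf with values below 0 and Itgb3 and Selp with values above 0. Pf4 had the largest difference of the megakaryocyte list, -1.73. Vwf is in the stem cell list as well, so the means of these lists are not separate observations. Camp and Chil3, genes of neutrophils and other myeloid cells that were chosen after their values were seen, were called lower, with log2 fold changes of -3.81 and -2.68 (adjusted p of 0.030 and 0.043 in limma). Further myeloid genes, chosen in the same way, lay on both sides. Anpep was called higher, with a log2 fold change of 2.39 (adjusted p = 0.013 in limma). C1qb and C3ar1 had 2.57 and 2.61, and S100a8 and Ngp had -3.13 and -2.86, without a call. Myeloid genes were not measured as a list, so no common direction is given for them. The part of the stem cell, megakaryocyte and myeloid genes in the Car3 result was not tested, and the lists were chosen with earlier results known. The 5 genes whose profile over the 6 arrays was most like that of Car3, by the root mean square difference between profiles centred on their own means, were Mmrn1, Tek, Jakmip1, Rsad2 and Sox6. Their differences were 0.35, 0.38, 0.39, 0.45 and 0.46 log2 units, among 8787 genes compared. Only genes in the upper 50% by mean signal were compared, and those with clone or predicted names were left out. All 5 share with Car3 mutant values below the wild type values, and that difference is part of the likeness.

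Car2, the fast cytosolic enzyme of red cells and osteoclasts, was lower on all 3 mutant arrays and did not pass the test. It had a log2 signal of 12.88, 12.50 and 12.63 on mutant arrays 1, 2 and 3, against 13.19, 13.38 and 13.24 on the wild type arrays. The groups did not overlap, and the nearest arrays of the 2 groups lay 0.31 log2 units apart. Means were 12.67 ± 0.19 in mutant and 13.27 ± 0.10 in wild type arrays (SD, n = 3 each). The log2 fold change was -0.60 ± 0.17 (SE), with a 95% interval of -0.98 to -0.21 and an adjusted p in limma of 0.282, which ran from 0.059 to 0.769 over the 18 alternatives. The difference was -0.52 against wild type array 1 alone and lay between -0.70 and -0.52 when each array was left out in turn. The interval runs from 1.98-fold to 1.16-fold lower, and the groups' non-overlap stands beside an adjusted p that misses the threshold.

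The 5 genes with profiles most like that of Car2 were picked for that likeness among 8787 genes, limited as for Car3, and the difference between the groups is part of it. Anxa1, the gene of annexin A1, differed from it by 0.04 log2 units (root mean square, centred profiles, 6 arrays), and Mllt3, a gene of transcription elongation complexes, by 0.05. Oxct1, an enzyme of ketone body use, differed by 0.06, and Spata7 and Mettl7a2 by 0.07 each. None of these 5 genes was called.

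Genes of osteoclasts, a cell type known for Car2, were set beside it. Of 10 osteoclast genes 8 had a log2 fold change below 0, limma called 0, and 0 separated the groups. The gene at an unadjusted p under 0.05, which 10.0% of all genes reached, was Atp6v0d2, a proton pump subunit, with the opposite direction to Car2. Its log2 signal was 8.49, 6.86 and 6.02 on mutant arrays 1, 2 and 3, against 4.38, 6.15 and 4.90 on the wild type arrays, and its log2 fold change was 1.98 ± 0.66 (SE, adjusted p = 0.395 in limma). The brightest of the list were Tcirg1, another proton pump subunit, Nfatc1, a transcription factor, and Acp5, an acid phosphatase, with log2 fold changes of -0.06, 0.11 and -1.02. Acp5 had 6.41, 5.78 and 6.15 on mutant arrays, against 6.13, 6.59 and 8.67 on the wild type arrays. Its groups overlapped (SE 0.60, adjusted p = 0.601 in limma), and wild type array 3 held the highest value. Mean log2 signals of Tcirg1 and Nfatc1 over all 6 arrays were 9.77 and 9.36. The list had a mean log2 signal of 6.17 to 6.42 on mutant and 6.01 to 6.62 on wild type arrays. Ctsk, the gene of the protease cathepsin K of osteoclasts, and Calcr, the calcitonin receptor, were chosen after their values were seen and were the 2 of the 10 that lay below the lower quartile on every array. The part of osteoclast genes in the Car2 result was not tested.

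Car1, the other abundant cytosolic enzyme of red cells, varied widely within both groups. Its log2 signal was 11.63, 10.50 and 11.91 on mutant arrays 1, 2 and 3, against 9.43, 11.43 and 10.70 on the wild type arrays. Mutant array 2 lay below wild type arrays 2 and 3, so the groups overlapped. Means were 11.35 ± 0.75 in mutant and 10.52 ± 1.01 in wild type arrays (SD, n = 3 each), and the log2 fold change was 0.83 ± 0.54 (SE, adjusted p = 0.629 in limma), with a 95% interval of -0.43 to 2.08. Wild type array 1 held the lowest value, and without it the log2 fold change was 0.28. Without mutant array 2, mutant array 3 or wild type array 2 it was 1.25, 0.55 and 1.28. Against wild type array 1 alone it was 1.92.

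The arrays fell in the same order for Car1 and for a list of erythroid genes that does not hold Car1. The mean log2 signal of the 16 erythroid genes was 7.98, 7.50 and 8.20 on mutant arrays 1, 2 and 3, against 7.45, 7.95 and 7.93 on the wild type arrays. All 6 arrays held the same rank in both measures, with mutant array 3 highest and wild type array 1 lowest. Ranks were compared for no other member or list, and this comparison was not planned in advance. The steps between ranks of the list were small. Ranks 2, 3 and 4 held 7.98, 7.95 and 7.93, and ranks 5 and 6 held 7.50 and 7.45. Of the 16 genes, 10 had a log2 fold change above and 6 below 0, limma called 0, with 0 at an unadjusted p under 0.05, and the list's median was 0.13. The brightest were Tfrc, the transferrin receptor, Tspan33 and Ermap, with log2 fold changes of 0.46, 0.05 and 0.47. The haemoglobin gene Hba-a1, chosen after its values were seen, had a log2 signal of 5.88 to 6.29 on mutant and 6.21 to 6.31 on wild type arrays. The part of erythroid genes in the spread of Car1 was not tested.

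**Figure D2:**
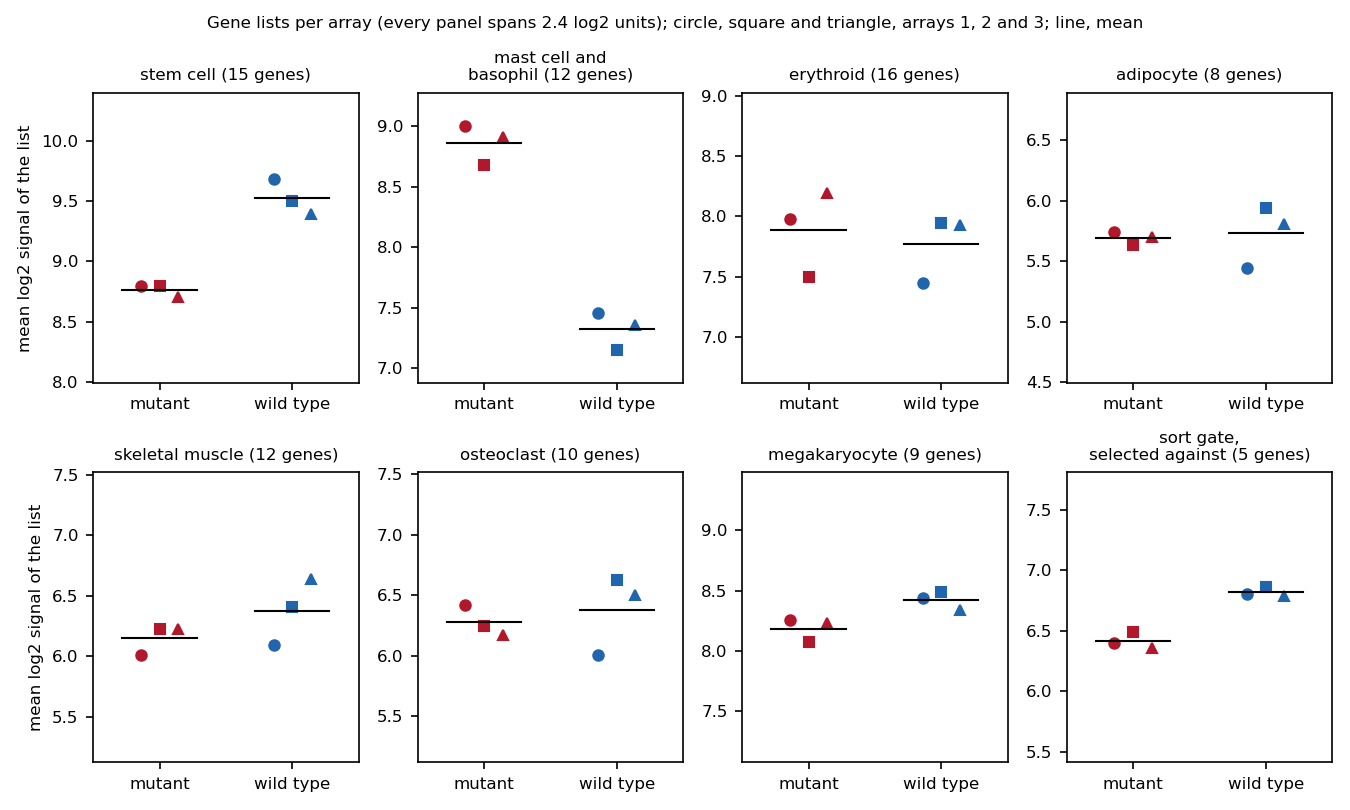
Mean log2 signal (y axis) of 8 gene lists on each mutant and wild type array (x axis), with group means as lines. The stem cell list, the megakaryocyte list and the genes selected against in the sort lie lower and the mast cell and basophil list higher on the mutant arrays, while the groups overlap in the other 4 lists.

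Car13, a cytosolic enzyme of broad distribution, gave different directions at its 3 probe sets. The brightest, 1421307_at, had a log2 signal of 8.55, 8.32 and 8.83 on mutant arrays 1, 2 and 3, against 8.91, 9.40 and 8.39 on the wild type arrays. The groups overlapped, and the log2 fold change was -0.33 ± 0.27 (SE, adjusted p = 0.676 in limma), with a 95% interval of -0.96 to 0.31. Leaving out wild type array 2 gave -0.08, leaving out wild type array 3 gave -0.58, and leaving out mutant array 2 gave -0.21. At the dim probe set 1439620_at the signal was 6.04, 5.32 and 6.58 on mutant arrays, against 4.34, 5.23 and 3.73 on the wild type arrays, a log2 fold change of 1.54. At 1421308_at it was 5.65, 5.69 and 5.65 on mutant arrays, against 4.93, 5.57 and 5.10 on the wild type arrays, a log2 fold change of 0.47. At both dim probe sets all mutant values lay above all wild type values, the opposite direction to the bright one. Neither was called when each probe set was fitted separately (adjusted p of 0.367 and 0.530 in limma), and they lay below the array's lower quartile on 3 and 2 of 6 arrays. The mean of the 3 probe sets gave Car13 a log2 fold change of 0.56.

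The cytosolic enzymes Car1, Car2, Car3 and Car13 lie side by side on mouse chromosome 3. In the GRCm38.p6 gene table the order is Car13, Car1, Car3 and Car2, with only pseudogenes and a non-coding RNA gene between them, and Car3 and Car2 are direct neighbours. Along that order the log2 fold changes were -0.33, 0.83, -2.08 and -0.60. The neighbours Car1 and Car3 thus had opposite signs, and the neighbours Car3 and Car2 the same sign at different size.

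**Figure D3:**
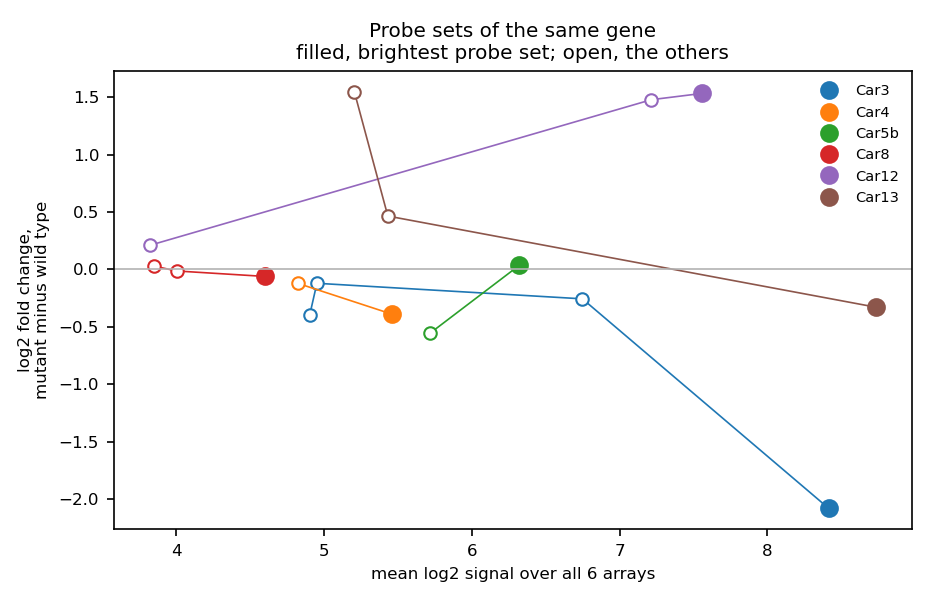
Log2 fold change, mutant minus wild type (y axis), against mean log2 signal over all 6 arrays (x axis) for every probe set of the 6 members with more than 1. Filled points are the brightest probe set of a gene and open points the others. The 2 brighter Car12 probe sets lie together at 1.48 and 1.53, whereas the Car3 and Car13 probe sets spread apart.

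Of the membrane enzymes, Car12 was higher on every mutant array at each of its 3 probe sets and did not pass the test. Car12 spans the membrane with its catalytic part outside the cell. At the brightest probe set, 1428485_at, the log2 signal was 8.28, 8.16 and 8.53 on mutant arrays 1, 2 and 3, against 6.64, 5.91 and 7.82 on the wild type arrays. At the next, 1446517_at, it was 7.73, 8.16 and 7.97 on mutant arrays, against 7.21, 5.83 and 6.39 on the wild type arrays. Mutant arrays were tightly grouped in both and wild type arrays were spread, with wild type array 3 nearest to the mutants in the first and wild type array 1 in the second. Means at the brightest were 8.32 ± 0.19 in mutant and 6.79 ± 0.96 in wild type arrays (SD, n = 3 each). The log2 fold change was 1.53 ± 0.43 (SE, adjusted p = 0.294 in limma) with a 95% interval of 0.53 to 2.54, and over the 18 alternatives the adjusted p ran from 0.116 to 0.815. The second probe set had 1.48 (adjusted p = 0.265 in limma with each probe set fitted separately). Against wild type array 1 alone the differences were 1.68 and 0.75. The third, 1447762_x_at, lay below the lower quartile on every array and had a log2 fold change of 0.21.

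The mean signal of a list of mast cell and basophil genes lay higher on the mutant arrays, as that of Car12 did. Of 12 such genes, 9 had a log2 fold change above and 3 below 0. In 6 all mutant values lay above all wild type values, where 8.08% of all genes showed this. Gzmb and Hpgds were called, where 0.055% of all genes were called higher. The list's mean log2 signal was 8.68 to 9.01 on mutant and 7.15 to 7.46 on wild type arrays, with a median log2 fold change of 1.30. The mast cell protease gene Mcpt4, chosen after its values were seen, lay below the lower quartile on every array, and the brightest genes, Kit, Cpa3 and Ms4a2, had log2 fold changes of -0.11, 0.77 and 2.77. The part of these genes in the Car12 result was not tested.

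CA12 and CA9 are known in human cells as genes induced when oxygen is low, and the human CA9 promoter is bound by the hypoxia-inducible factor (HIF) close to its start. The promoters of Car12, the member with 2 well measured probe sets in the same direction, and of Car9, whose groups overlapped, are therefore shown for comparison. This pair and the motifs searched were chosen after the values were seen. Each is the 250 bases before the transcript's start, from RefSeq on GRCm38.p6 and the plus strand, at chr9:66713436-66713685 and chr4:43506776-43507025. Capitals mark the core ACGTG on either strand.
Car12: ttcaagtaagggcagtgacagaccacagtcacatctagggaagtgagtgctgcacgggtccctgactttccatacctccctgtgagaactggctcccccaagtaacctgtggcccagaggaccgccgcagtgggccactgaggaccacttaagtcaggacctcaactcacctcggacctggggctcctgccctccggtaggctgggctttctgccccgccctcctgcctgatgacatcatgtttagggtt
Car9: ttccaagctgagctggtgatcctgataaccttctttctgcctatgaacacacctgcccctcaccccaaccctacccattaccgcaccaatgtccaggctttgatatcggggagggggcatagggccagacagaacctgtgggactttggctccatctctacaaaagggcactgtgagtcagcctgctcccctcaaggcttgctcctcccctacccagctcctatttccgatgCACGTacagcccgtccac
The Car9 window held the core once, on the minus strand, with its last base 14 bases before the start, and the Car12 window did not hold these letters. Of 32851 promoter windows of 250 bases in the table, 16.6% held the core on either strand. Of the other motifs searched on both strands, CACGTG (which contains the core) was held by 6.02% of windows, GATAA by 22.6% and TATAAA by 12.4%. None of these 3 was in the Car12 window, and GATAA was once in that of Car9. A match is a description of letters and not a measured site. Of the 8 members, Car4, Car5b and Car12 matched the promoter table, and the windows of Car4 and Car5b held none of the 4 motifs.

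Car4, the membrane enzyme held by a lipid anchor and best known from lung and kidney, was dim and did not separate the groups. Its brightest probe set had a log2 signal of 5.15, 5.35 and 5.30 on mutant arrays 1, 2 and 3, against 5.07, 5.97 and 5.93 on the wild type arrays. Wild type array 1 was the lowest of all 6. The log2 fold change was -0.39 ± 0.26 (SE, adjusted p = 0.631 in limma), with a 95% interval of -0.99 to 0.21, and it was 0.20 against wild type array 1 alone. It was -0.68, -0.23 and -0.26 without wild type array 1, 2 and 3. The second Car4 probe set lay below the lower quartile on every array and had a log2 fold change of -0.12.

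Car5b, the mitochondrial enzyme, showed no common direction. At its brightest probe set the log2 signal was 6.10, 5.85 and 7.06 on mutant arrays 1, 2 and 3, against 6.15, 7.26 and 5.50 on the wild type arrays. The highest and the lowest value both came from wild type arrays. The log2 fold change was 0.03 ± 0.48 (SE, adjusted p = 0.982 in limma), and its 95% interval, -1.07 to 1.14, spans differences from 2.10-fold lower to 2.20-fold higher. The dimmer probe set, 1447928_at, had a log2 fold change of -0.55 with overlapping groups.

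Car8, the family member without enzyme activity that is known for its role in the cerebellum, was at the low end of the arrays at all 3 probe sets. The brightest had a log2 signal of 5.00, 4.49 and 4.21 on mutant arrays 1, 2 and 3, against 4.47, 4.89 and 4.52 on the wild type arrays. Each of its 3 probe sets lay below the lower quartile on all 6 arrays. The log2 fold changes were -0.06, -0.01 and 0.03, and for the brightest the SE was 0.24 and the adjusted p in limma 0.929. The 95% interval of the brightest, -0.61 to 0.49, reaches 1.53-fold lower and 1.40-fold higher. Over the 8 members, 6 lay in the upper 75% of genes by mean signal and 5 in the upper 50%.

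The other 8 carbonic anhydrases on the array, Car5a, Car6, Car7, Car9, Car10, Car11, Car14 and Car15, were measured in the same fit. All 8 had a log2 fold change below 0, from -0.34 for Car11 to -0.04 for Car5a, limma called 0, with 0 at an unadjusted p under 0.05, and 0 separated the groups at their brightest probe set. Their median was -0.11, beside -0.07 for all genes. Car9, a membrane enzyme known as a marker of low oxygen, had a log2 signal of 8.06, 7.85 and 8.33 on mutant arrays 1, 2 and 3, against 7.96, 8.37 and 8.22 on the wild type arrays. The difference was -0.11 ± 0.19 (SE, log2), and its 95% interval of -0.55 to 0.34 reaches 1.47-fold lower and 1.26-fold higher. Car15, the secreted enzyme Car6 of saliva and Car14, a membrane enzyme, had log2 fold changes of -0.22, -0.23 and -0.12.

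**Figure D4:**
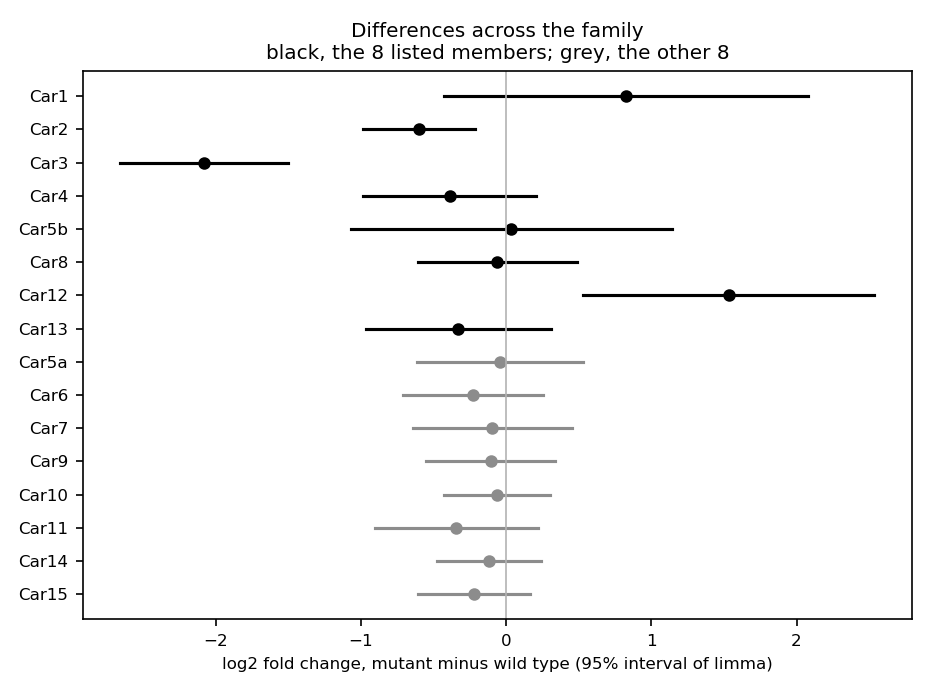
Log2 fold change, mutant minus wild type (x axis), with its 95% interval for the brightest probe set of 16 carbonic anhydrases (y axis). Black marks the 8 listed members and grey the other 8. The intervals of Car2, Car3 and Car12 lie to a side of 0, and those of the other 13 genes include it.

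Carbonic anhydrases work with transporters that carry bicarbonate, protons and lactate across membranes. Of 26 measured genes of such transport, limma called 0, and 2 had an unadjusted p under 0.05, where 10.0% of all genes passed. Of the 26, 9 had a log2 fold change above and 17 below 0, and the median was -0.08. The smallest p belonged to Slc16a1, the lactate and pyruvate transporter MCT1. It had a log2 signal of 11.21, 11.17 and 11.50 on mutant arrays 1, 2 and 3, against 10.68, 10.40 and 10.44 on the wild type arrays, without overlap. Its log2 fold change was 0.79 ± 0.17 (SE, adjusted p = 0.177 in limma). Slc4a5, a sodium bicarbonate cotransporter, had 4.37, 4.44 and 4.61 on mutant arrays, against 6.60, 5.00 and 5.97 on the wild type arrays, a log2 fold change of -1.38 ± 0.37 (SE, adjusted p = 0.265 in limma). Those mutant values lie below the lower quartile of the arrays, so the size of the fold is not exact. Slc9a9, an endosomal sodium proton exchanger, and Slc16a3, the lactate exporter MCT4, had log2 fold changes of -0.56 and -0.48 (adjusted p of 0.498 and 0.507 in limma). The red cell anion exchanger Slc4a1, chosen after its values were seen, had 5.51 to 5.71 on mutant and 5.82 to 6.10 on wild type arrays, and Aqp1, a water channel of red cells, had a log2 fold change of 0.06 ± 0.50 (SE).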

How the data were processed

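RNA of 6 samples was measured on single-colour expression arrays. The deposited value is an intensity on a linear scale for each probe set, which the authors made with RMA (background correction, normalization between arrays, summary of probes), per the submitters' processing notes. RMA's version and settings are not stated in these sources. Values ran from 7.6 to 33795, so log2 was taken. Of 45101 probe sets, 34945 named a single gene, and controls (64) and those naming several genes (932) or no gene (9160) were left out. The brightest probe set per gene gave 18193 genes. Groups, taken from the sample titles, were compared by limma (version 3.58.1, R 4.3.3; lmFit, eBayes, mutant minus wild type, two-sided, Benjamini-Hochberg over all genes), and a gene was called at an adjusted p under 0.05. In simulated data for the same comparison over 18193 genes, 25.3%, 84.0% and 96.0% of genes changed 2-fold, 4-fold and 8-fold were called. There 75, 75 and 50 genes were changed, with independent normal noise of equal spread in both groups. The spread of the real groups was unequal, so these shares need not hold for the real arrays. The number of arrays limits the precision. No array repeated another (at most 99 probe sets identical).

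Genes named by rule are the 8 members, members of the marker lists that were called or among the brightest, those with the smallest p among other carbonic anhydrases and transporters, and the genes most like Car3 and Car2. Any other gene was picked with its values known. Marker lists covered stem, erythroid, mast, adipocyte, muscle, osteoclast and megakaryocyte cells. Members and lists were chosen with earlier results of these data known. Alternatives were the replicate block, Y-linked signal, normalization, probe sets, low filters, a pseudocount of 16, moderation, weights, threshold and leaving out each array.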

Additional observations from a re-analysis of the deposited data

How the results depend on the processing

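The number of genes called, 20 in all (1828 at an unadjusted p under 0.05), was 10 with the replicate number as a block, 0 with a covariate for Y-linked signal, 0 without the 2 arrays that carry it, 12 with each probe set fitted separately, 11 with log2(value + 16), 40 with trend and robust fitting, 8 with array weights and 49 at an adjusted p under 0.10. Leaving out each array in turn gave 5 to 31. The number of carbonic anhydrases called, 1, was 0 with the replicate block, the Y covariate, without the arrays with Y-linked signal, after quantile normalization again, with probe sets averaged per gene, with each probe set fitted separately, with log2(value + 16), with array weights and without any single array (0 to 0). The log2 fold change of Car3 was no longer called at -2.08 with the replicate block (adjusted p = 0.098 in limma), -1.83 with the Y covariate (0.467), -1.79 without the arrays with Y-linked signal (0.253), -2.12 after quantile normalization again (0.075), -0.71 with the mean of its probe sets (0.295), -2.08 with each probe set fitted separately (0.084), -1.98 with log2(value + 16) (0.077) and -2.04 with array weights (0.055), and it ran from -2.23 to -1.84 without each array. It kept its call with median centring, without the lower 25% or 50% of genes and with trend and robust fitting.

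Signs changed in Car4, Car5b, Car8 and Car13, which had log2 fold changes of -0.39, 0.03, -0.06 and -0.33 in the main fit. Car4 was 0.16 with the Y covariate and 0.20 without the arrays with Y-linked signal. Car8 was 0.085 and 0.10 in those fits and 0.035 after quantile normalization again. Car5b was -0.26 with the mean of its probe sets and -0.16 with array weights, and Car13 was 0.56 with the mean of its probe sets. Without each array Car5b ran from -0.37 to 0.51 and Car8 from -0.28 to 0.12. Car1, Car2 and Car12 kept their direction in all 18 alternatives and were called in 0. The fit without those arrays has wild type array 1 as its sole wild type array and assumes that it varies as the mutant arrays do, and the fit with the covariate uses all 6 arrays. Same-numbered arrays deviated together at r of 0.18, -0.03 and 0.06, and arrays of different number at -0.16 to 0.09. The highest r, 0.18, belonged to the arrays numbered 1. The numbers were not taken as pairs in the main fit, and the results with the replicate number as a block are given above. Apart from the 2 probe set alternatives, the causes of these changes were not tested.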
